A study of Rattus norvegicus with 44 samples.

Results

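The 6 apolipoprotein genes Apoa1, Apoa2, Apoa4, Apob, Apoc3 and Apoe were followed through 44 liver arrays from rats given the compound R1, the compound R2 or vehicle. Their members were all probe sets (groups of short probes read as 1 signal) annotated with 1 gene symbol that was one of these 6. This gave 14 of the 8740 probe sets that remained after the array's controls were removed, 5 for Apob, 3 for Apoc3, 2 each for Apoa1 and Apoe, and 1 each for Apoa2 and Apoa4. All 14 passed the filter on dim signals, which asked for a mean of at least 9.17 in the brightest of the 11 groups. The 2 dimmest, both of Apob, passed it through groups of studies 1 and 2 and lay under it in every group of studies 3 and 4.

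All rats were male Wistar animals aged 8 weeks, dosed by gavage once a day, with citric acid buffer as the vehicle, and a slice of the left lateral liver lobe was taken 24 h after the last dose. Study 1, sampled at 24 h, held 3 vehicle arrays, 4 with R1 at 10 mg/kg/day, 3 with R1 at 30 mg/kg/day and 3 with R1 at 100 mg/kg/day. Study 2, sampled at 336 h, held 4 vehicle arrays, 5 with R1 at 20 mg/kg/day and 4 with R1 at 100 mg/kg/day. Study 3, also at 336 h, held 5 vehicle arrays and 4 with R1 at 30 mg/kg/day. Study 4, at 24 h, held 4 vehicle arrays and 5 with R2 at 300 mg/kg/day. R1 and R2 are code names, and R2 was given at another dose than R1, so their values stand side by side without a comparison. Arrays of 1 group carry replicate numbers in the labels, without a statement that each came from another rat. The p-values therefore rest on the spread among arrays, part of which may be technical, and 3 to 5 arrays a group set the precision.

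Apolipoproteins are the proteins of lipoprotein particles, which carry triglyceride and cholesterol through the blood. Apob is the scaffold of very low density lipoprotein, the particle the liver secretes to export triglyceride, while Apoa1 and Apoa2 are the main proteins of high density lipoprotein. Apoc3 slows the removal of triglyceride-rich particles, Apoe is the ligand by which receptors take up remnant particles, and Apoa4 is carried on chylomicrons and high density lipoprotein. In rodents the liver makes all 6, and Apoa4 is also made in large amounts by the small intestine.

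In RefSeq's annotation Apoa1, Apoc3 and Apoa4 lie next to each other in that order on chromosome 8, followed by Apoa5, which no probe set of the array named. Apoe lies on chromosome 1, Apob on chromosome 6 and Apoa2 on chromosome 13. The promoter of Apoa4 is shown because Apoa4 had the largest changes of the 6 genes. It is the RefSeq sequence of the 250 bases before the start of the gene in the build GRCr8, plus strand, chr8:55435529-55435778, with the letters AAAGTCCA in capitals:
Apoa4: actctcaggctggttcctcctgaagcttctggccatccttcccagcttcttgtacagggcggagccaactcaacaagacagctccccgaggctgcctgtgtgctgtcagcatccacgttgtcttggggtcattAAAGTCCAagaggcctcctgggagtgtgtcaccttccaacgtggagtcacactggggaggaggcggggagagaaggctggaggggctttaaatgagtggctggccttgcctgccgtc

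The capitals lie 117 to 110 bases before the start, on the plus strand. This run of letters was picked after the sequence had been read, and it occurs on either strand in 1.19% of the 33469 promoter windows of the table. The motifs AGGTCA, a core letter pattern of nuclear receptor sites, CAAAGTCC, a core pattern of the factor HNF4, and TATAAA, the TATA box, were searched on both strands and are not in this window. They occur in 14.1%, 1.14% and 12.9% of all windows. Among the 6 genes the table matched Apoa4 and Apoe, and no array value here bears on the promoter of Apoe.

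The signals had been scaled so that every array holds the same set of values, so a level is relative to the other probe sets of its array. Arrays of a group correlated at 0.924 to 0.974 over the 6361 probe sets tested. Markers of hepatocytes, the main cell of the liver, were bright in every group. The summed signal of the 9 of 10 hepatocyte markers on the array lay between 51720.0 and 64337 in all arrays. Log2 fold changes below carry their SE and come from a limma fit of log2(signal + 2.89). A probe set counts as called where its p, adjusted by Benjamini-Hochberg within a comparison over the 6361 tested, is under 0.05.

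Of the 14 probe sets, 0 were called with R1 at 10, 30 or 100 mg/kg/day at 24 h. In the same comparisons 1.24%, 1.73% and 6.4% of all probe sets tested were called in either direction. In limma the unadjusted p was under 0.05 for 0, 0 and 1 of the 14, and no alternative setting called any of them at these doses. With R2 at 300 mg/kg/day, 1 of the 14 was called lower, against 7.88% of all probe sets. After 336 h of R1 at 20 mg/kg/day, 2 of the 14 were called lower, against 1.89% of all. At 100 mg/kg/day, 3 were called lower and 2 higher, against 5.2% and 5.11% of all. At 30 mg/kg/day, 4 were called lower and 2 higher, against 6.01% and 5.27%. The probe sets called lower at 336 h were those of Apoa4 and Apoc3, and those called higher were those of Apoa1. In the limma fit Apoa2 and Apoe were called in none of the 13 comparisons, and Apob in none of the 7 comparisons of a dose with its vehicle. The median log2 fold change of the 14 stayed between -0.14 and 0.07 in those 7 comparisons, beside a median of -0.05 to -0.01 over all probe sets tested. The 2 doses of study 2 share their vehicle arrays, as do the 3 doses of study 1.

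**Figure D1:**
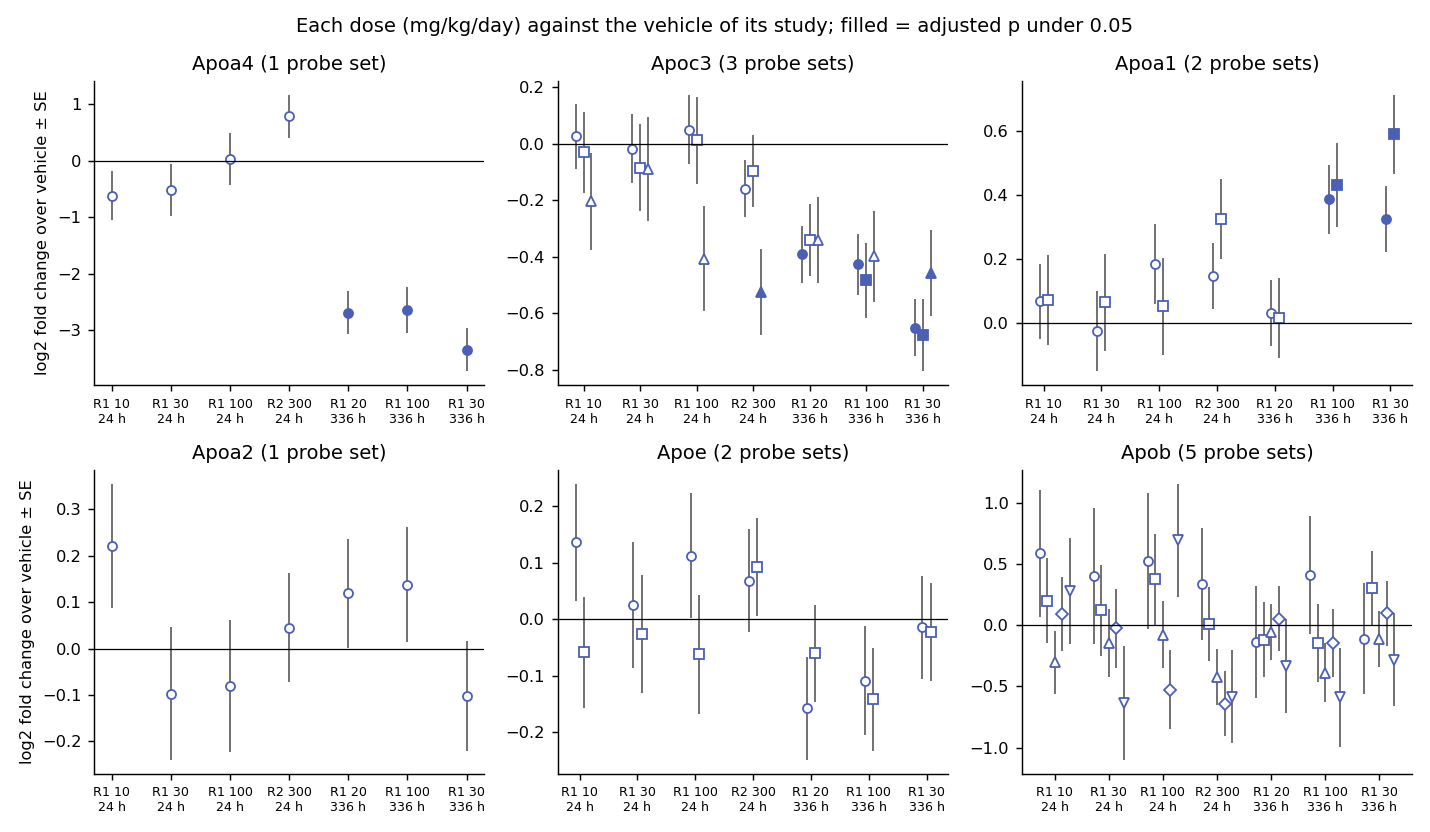
Log2 fold change over the vehicle of the same study (vertical axis) in the 7 dose comparisons (horizontal axis, doses in mg/kg/day with the sampling time), 1 panel per gene with its own vertical scale. Points are limma estimates with bars of ± SE, marker shapes separate the probe sets of a gene in the order of their names, and filled markers have an adjusted p under 0.05. Filled markers occur in the panels of Apoa4, Apoc3 and Apoa1, and the 3 at 336 h for Apoa4 lie between -3.35 and -2.64.

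Apoa4, whose protein is thought to assist the secretion and handling of triglyceride-rich particles, fell at every R1 dose after 336 h. In study 2 its signal in the 4 vehicle arrays was 897, 889, 801 and 909. In the 5 arrays with R1 at 20 mg/kg/day it was 142, 133, 147, 148.5 and 99.2, and in the 4 arrays at 100 mg/kg/day it was 162, 148, 134 and 111. Every treated array of study 2 lay below every vehicle array by a wide margin, and the arrays of the 2 doses lay among each other.

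The group means in study 2 were 874 ± 49.2 (SD, n = 4) for vehicle, 134 ± 20.3 (n = 5) at 20 mg/kg/day and 139 ± 21.6 (n = 4) at 100 mg/kg/day. The fall of Apoa4 was -2.69 ± 0.38 at 20 mg/kg/day (adjusted p = 2.1e-06) and -2.64 ± 0.40 at 100 mg/kg/day (adjusted p = 2.91e-06), so vehicle means were 6.53 and 6.31 times the treated ones. The 2 doses were not told apart. Their difference was 0.05 ± 0.38, with a 95% interval from -0.72 to 0.82 (adjusted p = 0.979). This interval uses the spread fitted over all 11 groups and not that of the study 2 arrays alone.

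In study 3 Apoa4 stood at 499, 528, 664, 496 and 542 in the 5 vehicle arrays and at 26.8, 35.2, 102 and 66.7 in the 4 arrays with R1 at 30 mg/kg/day. The groups again did not overlap, and the means were 545.5 ± 68.8 (n = 5) and 57.8 ± 34.4 (n = 4). The fall was -3.35 ± 0.38 (adjusted p = 1.03e-08), with a vehicle mean 9.44 times the treated one. Whether the fall at 30 mg/kg/day in study 3 differed from those in study 2 was not tested, since the studies had different vehicle animals. The vehicle arrays of studies 2 and 3 did not overlap for Apoa4, although the difference of -0.68 ± 0.38 was not called (adjusted p = 0.234). The SE of Apoa4 rests on 1 spread fitted over all 11 groups, including those at 24 h, whose arrays varied more widely. It is therefore no measure of the spread of the 336 h arrays alone. No alternative setting and no left-out array ended any of these 3 calls of Apoa4.

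At 24 h Apoa4 varied more widely between arrays of a group. Study 1 gave 699, 934 and 427 in vehicle, 254, 419, 381 and 799 at 10 mg/kg/day, 669, 274 and 514 at 30 mg/kg/day, and 1085, 394 and 693 at 100 mg/kg/day. The groups of study 1 overlapped throughout. The group means were 687 ± 254 (n = 3), 463 ± 235 (n = 4), 485 ± 199 (n = 3) and 724 ± 346.5 (n = 3). The log2 fold changes at 10, 30 and 100 mg/kg/day were -0.62 ± 0.44, -0.52 ± 0.47 and 0.03 ± 0.47 (adjusted p = 0.685, 0.787 and 0.984). The difference between the highest and the lowest dose was 0.65 ± 0.44 (adjusted p = 0.516). In that comparison limma called 0 of the 14 probe sets, 2 of them having an unadjusted p under 0.05, against 3.98% of all.

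In study 4 Apoa4 read 277, 334, 762 and 716 in vehicle and 1569, 1967.5, 396, 779 and 386 with R2. With R2, 3 of the 5 arrays lay above the vehicle range, the one at 779 only just, and the other 2 lay within it. The means were 522 ± 252 (n = 4) and 1019.5 ± 716 (n = 5), and the log2 fold change of 0.79 ± 0.38 had a 95% interval from 0.01 to 1.56 and was not called (adjusted p = 0.172).

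**Figure D2:**
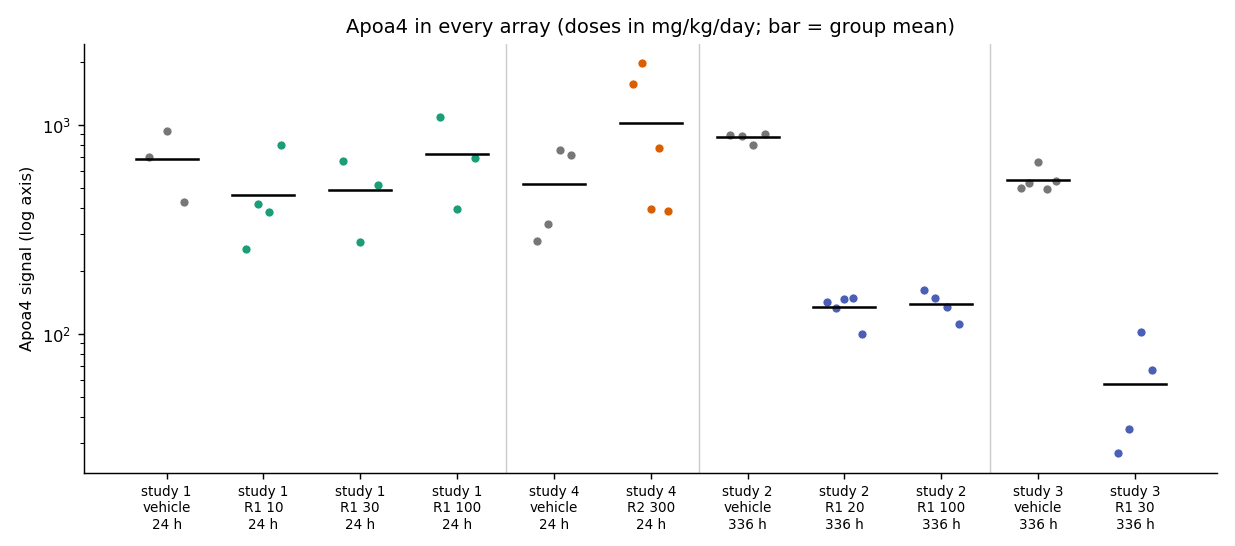
Apoa4 signal (vertical axis, logarithmic) in each of the 44 arrays, in the 11 groups along the horizontal axis, which gives study, compound with dose in mg/kg/day, and sampling time. Points are arrays, black bars are group means, and vertical lines separate the studies. The 13 arrays with R1 at 336 h lie between 26.8 and 162, and the other 31 lie between 254 and 1967.5.

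Over the whole series the 13 R1 arrays at 336 h held the 13 lowest values of Apoa4, with a median of 133 beside 664 for the other 31 arrays. In the order of the 11 group means, R1 at 30 mg/kg/day at 336 h was lowest, followed by R1 at 20 and then at 100 mg/kg/day at 336 h. Next came R1 at 10 and 30 mg/kg/day at 24 h and the vehicles of studies 4, 3 and 1. R1 at 100 mg/kg/day at 24 h, the vehicle of study 2 and R2 at 300 mg/kg/day closed the order. Neighbouring groups in this order overlapped in their arrays, except that the highest array with R1 at 336 h, at 162, lay below the lowest array with R1 at 10 mg/kg/day at 24 h, at 254.

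The effect of R1 on Apoa4 differed between the sampling times. For 30 mg/kg/day the change at 336 h minus that at 24 h was -2.83 ± 0.60 (95% interval -4.04 to -1.61, adjusted p = 0.00828). For 100 mg/kg/day it was -2.67 ± 0.62 (95% interval -3.92 to -1.43, adjusted p = 0.00446). The first of these ended without replicate 1 of R1 at 30 mg/kg/day at 24 h, the array at 669, with -2.55 and an adjusted p = 0.051. Each of these compares 2 studies, so sampling time and study cannot be told apart. Of the 14 probe sets, 2 were called lower in the first comparison and 1 in the second, against 0.456% and 3.13% of all.

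Apoc3, which encodes the inhibitor of triglyceride clearance, was lower after 336 h of R1 by a smaller step. Its main probe set, J02596cds_at, the one with the highest mean over all arrays, read 7488, 6990.1, 6056.5 and 8149.8 in the vehicle arrays of study 2. It read 5010.3, 5941, 5941, 5519.9 and 4861 with R1 at 20 mg/kg/day and 5821.5, 5519.9, 4409 and 5585 at 100 mg/kg/day. In study 3 it read 7187, 6702, 7779.7, 7779.7 and 7665 in vehicle and 5010.3, 4114, 4365 and 5519.9 with R1 at 30 mg/kg/day. All 13 R1 arrays at 336 h, at 4114 to 5941, lay below all 31 other arrays, at 6056.5 to 8418.

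The group means of J02596cds_at were 7171 ± 882 (n = 4), 5455 ± 507 (n = 5) and 5334 ± 630.2 (n = 4) in study 2, and 7423 ± 471 (n = 5) and 4752 ± 636 (n = 4) in study 3. The changes were -0.39 ± 0.10 at 20 mg/kg/day (adjusted p = 0.0142), -0.43 ± 0.11 at 100 mg/kg/day (adjusted p = 0.00429) and -0.65 ± 0.10 at 30 mg/kg/day in study 3 (adjusted p = 6.72e-06). The first call of Apoc3 rests on the vehicle group of study 2. Without vehicle replicate 1 its adjusted p was 0.0567 and without vehicle replicate 4 it was 0.0988. With each study fitted alone it was 0.132 at 20 mg/kg/day and 0.0646 at 100 mg/kg/day. No setting and no left-out array ended the call at 30 mg/kg/day.

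The other 2 probe sets of Apoc3 had log2 fold changes of the same sign, with wider spread. J02596cds_g_at has the same source sequence as J02596cds_at and is no independent reading. Its log2 fold changes were -0.34 ± 0.13 (adjusted p = 0.139), -0.48 ± 0.13 (adjusted p = 0.0113) and -0.68 ± 0.13 (adjusted p = 0.000131) at 20, 100 and 30 mg/kg/day at 336 h. Its call at 100 mg/kg/day ended without vehicle replicate 4 of study 2 (adjusted p = 0.055), without R1 replicate 3 (adjusted p = 0.14) and with each study fitted alone (adjusted p = 0.0915).

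The third reading of Apoc3, rc_AI169758_at, comes from another sequence and read 492 to 944 in the 13 R1 arrays at 336 h and 685 to 1501 in the other 31. Its log2 fold changes were -0.34 ± 0.15 (adjusted p = 0.263), -0.40 ± 0.16 (adjusted p = 0.121) and -0.46 ± 0.15 (adjusted p = 0.0434) in the same order. At 30 mg/kg/day its arrays read 739.5, 714, 596 and 944 beside 830.2, 929, 1127, 904 and 1361 in vehicle, and the highest treated array lay among the vehicle arrays. That last call ended without any of R1 replicates 1, 2 and 3 or vehicle replicates 3 and 5 of study 3, with adjusted p-values of 0.0822, 0.0931, 0.229, 0.0964 and 0.17. It also ended with each study fitted alone (adjusted p = 0.113), without the mean-variance trend (adjusted p = 0.0675) and without the filter on dim probe sets (adjusted p = 0.0557).

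With R2 at 300 mg/kg/day, rc_AI169758_at was the probe set of the 14 that was called. It read 1320.1, 1007, 1082 and 1209.9 in vehicle and 795, 816, 983, 685 and 741 with R2, without overlap, a change of -0.52 ± 0.15 (adjusted p = 0.0132). The call ended without vehicle replicate 1 (adjusted p = 0.0607) and with study 4 fitted alone (adjusted p = 0.0557). The 2 other probe sets of Apoc3 were not called, at -0.16 ± 0.10 and -0.10 ± 0.13 (adjusted p = 0.326 and 0.686). The arrays of J02596cds_at did not overlap, at 8047 to 8418 in vehicle and 7187 to 7926 with R2. The share of all probe sets without overlap was not counted, so this adds nothing to its uncalled change. A lower Apoc3 with R2 thus rests on rc_AI169758_at alone. This 1 call among the 14 lies near the 7.88% of all probe sets called lower.

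At 24 h with R1 no probe set of Apoc3 was called, and J02596cds_at stayed between -0.02 and 0.05 at the 3 doses. The arrays of rc_AI169758_at at 100 mg/kg/day, at 923 to 1060, lay below those of vehicle, at 1195 to 1374, and its -0.41 ± 0.19 was not called (adjusted p = 0.232). The time difference of J02596cds_at was -0.63 ± 0.16 for 30 mg/kg/day (adjusted p = 0.0365). It was -0.48 ± 0.16 for 100 mg/kg/day (adjusted p = 0.0831). The other probe sets of Apoc3 were called at neither dose. J02596cds_g_at gave -0.59 ± 0.20 and -0.49 ± 0.20 (adjusted p = 0.208 and 0.181), and rc_AI169758_at gave -0.37 ± 0.24 and 0.01 ± 0.25 (adjusted p = 0.684 and 0.995). The call of J02596cds_at for 30 mg/kg/day ended without any of 10 arrays (the 3 vehicle arrays and R1 replicates 1 and 3 of study 1, and R1 replicates 2 and 3 and vehicle replicates 3, 4 and 5 of study 3), with adjusted p-values up to 0.0951. It also ended without the filter (adjusted p = 0.0826) and without the trend (adjusted p = 0.117). The 3 probe sets of Apoc3 differed by -0.04 ± 0.10, -0.14 ± 0.13 and -0.06 ± 0.15 between 100 and 20 mg/kg/day at 336 h. Their 95% intervals ran from -0.24 to 0.17, from -0.40 to 0.11 and from -0.37 to 0.25.

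Apoa1, the main protein of high density lipoprotein and the activator of the plasma enzyme Lcat, was higher at 336 h at R1 doses of 30 and 100 mg/kg/day and not at 20. For the probe set J02597cds_s_at the vehicle arrays of study 2 read 6196, 6196, 5424 and 6408. The 5 arrays at 20 mg/kg/day read 6762, 5466, 6117.5, 6408 and 6196, and the 4 arrays at 100 mg/kg/day read 8294, 7398, 8149.8 and 7779.7. All arrays at 100 mg/kg/day lay above those of vehicle and of 20 mg/kg/day, whose arrays lay among each other.

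The means were 6056 ± 433 (n = 4), 6190.1 ± 475 (n = 5) and 7905.5 ± 402 (n = 4). The log2 fold changes of J02597cds_s_at were 0.03 ± 0.10 (adjusted p = 0.936) and 0.39 ± 0.11 (adjusted p = 0.0131). The second probe set of Apoa1, M00001_i_at, had log2 fold changes of 0.02 ± 0.12 (adjusted p = 0.978) and 0.43 ± 0.13 (adjusted p = 0.0242), with arrays at 100 mg/kg/day at 8854, 6056.5, 8047 and 6762 and vehicle arrays at 6056.5, 5010.3, 5309.5 and 5466. Its highest vehicle array and its lowest treated array tied, so these groups met.

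Between 100 and 20 mg/kg/day at 336 h, Apoa1 was the gene of the 6 that was called. Both of its probe sets were higher at 100 mg/kg/day, by 0.35 ± 0.10 (adjusted p = 0.0365) and 0.42 ± 0.12 (adjusted p = 0.0445), against 2.09% of all probe sets called higher. Neither call held in all settings. Among those that ended both were no filter, each study fitted alone, no variance trend and array weights, with adjusted p-values from 0.0621 to 0.162. J02597cds_s_at also lost the call without R1 20 replicates 2, 3 and 5 or R1 100 replicates 1, 3 and 4, each in turn, with adjusted p-values up to 0.119. M00001_i_at lost it without R1 20 replicates 2, 4 and 5 or R1 100 replicates 1 and 3, with adjusted p-values up to 0.225.

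The calls of Apoa1 at 100 mg/kg/day against vehicle also leaned on single arrays. That of J02597cds_s_at ended without vehicle replicate 3 of study 2 (adjusted p = 0.0682). That of M00001_i_at ended without vehicle replicates 2 and 3 (adjusted p = 0.0863 and 0.0596) and without R1 100 replicates 1 and 3 (adjusted p = 0.134 and 0.0814), each in turn. It ended as well with each study fitted alone (adjusted p = 0.0897) and without the trend (adjusted p = 0.0552).

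In study 3 Apoa1 read 5212, 4802, 3799, 4861 and 4561 in vehicle and 5821.5, 5466, 6003.5 and 5883 with R1 at 30 mg/kg/day on J02597cds_s_at. On M00001_i_at it read 4802, 4045, 3862, 4802 and 3958 in vehicle and 6408, 6837, 5212 and 7488 with R1. The groups did not overlap on either probe set. The changes were 0.33 ± 0.10 (adjusted p = 0.0315) and 0.59 ± 0.12 (adjusted p = 0.000704). No setting and no left-out array ended the call of M00001_i_at. That of J02597cds_s_at ended without R1 replicates 1, 3 and 4 (adjusted p = 0.0672, 0.0988 and 0.074) and without vehicle replicates 3 and 5 (adjusted p = 0.124 and 0.0571). No filter, no trend and each study fitted alone ended it too, with adjusted p-values of 0.0638, 0.0754 and 0.0905.

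**Figure D3:**
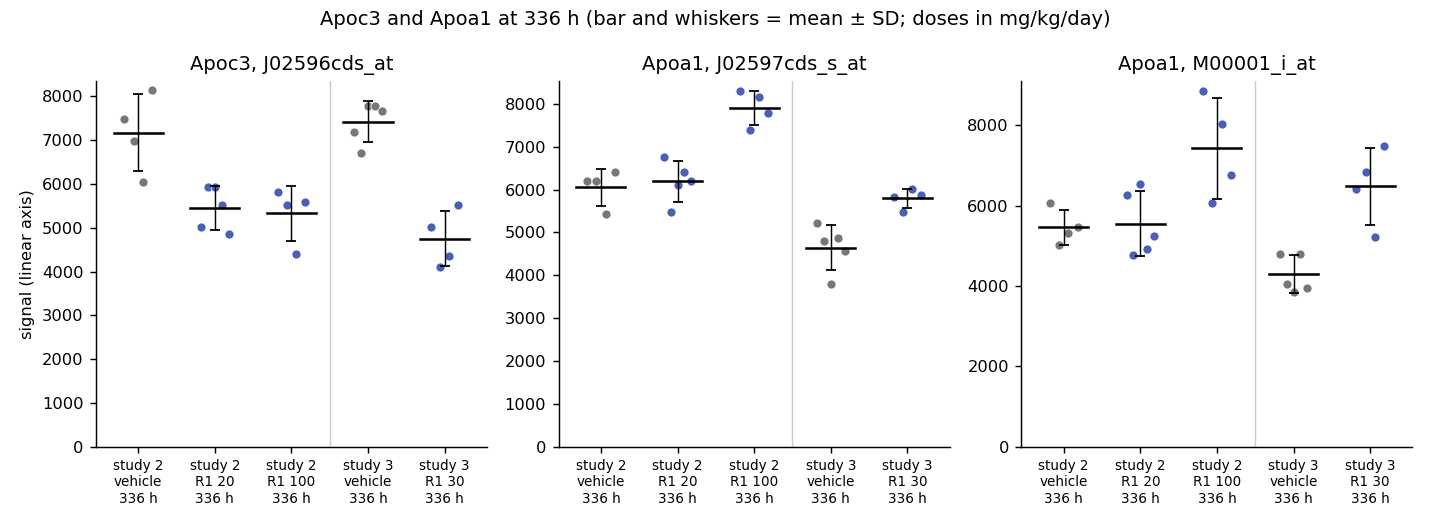
Signal (vertical axes, linear, from 0) of the Apoc3 probe set J02596cds_at and of both Apoa1 probe sets in the arrays sampled at 336 h, by study and R1 dose in mg/kg/day. Points are arrays and bars with whiskers are means ± SD. For Apoc3 every R1 array lies below 6056.5, the lowest vehicle array, and for J02597cds_s_at the arrays at 100 mg/kg/day lie above 7398 or at it while their vehicle arrays reach 6408.

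At 24 h no Apoa1 probe set was called with R1, with log2 fold changes from -0.03 to 0.18. With R2 they were 0.15 ± 0.10 (adjusted p = 0.382) and 0.33 ± 0.12 (adjusted p = 0.0687). For M00001_i_at the 5 arrays with R2 lay close together at 6277 to 6837, beside 3958 to 6277 in vehicle, and without vehicle replicate 1, the highest of its group, it was 0.41 with an adjusted p = 0.0293. Without vehicle replicate 4 it was 0.19 with an adjusted p = 0.371. The time differences of Apoa1 were 0.35 ± 0.16 and 0.53 ± 0.20 for 30 mg/kg/day (adjusted p = 0.444 and 0.28) and 0.20 ± 0.17 and 0.38 ± 0.20 for 100 mg/kg/day (adjusted p = 0.61 and 0.351). None was called, so for Apoa1 an effect at 336 h that differs from that at 24 h was not shown.

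The vehicle groups of Apoa1 themselves differed between studies. In study 3 the vehicle level at 336 h was below that in study 2 by -0.39 ± 0.10 on J02597cds_s_at (adjusted p = 0.00587) and by -0.35 ± 0.12 on M00001_i_at (adjusted p = 0.0442). The study 3 vehicle was the lowest of the 11 groups on both probe sets of Apoa1, and R1 at 100 mg/kg/day at 336 h was the highest. On J02597cds_s_at that highest group, at 7398 to 8294, did not overlap the next, R2, at 6003.5 to 6609.9. The mean with R1 at 30 mg/kg/day in study 3 was 5793.5 on this probe set, below the 6056 of the study 2 vehicle. On M00001_i_at it was 6486, above the 5461 of that vehicle. The difference between vehicles on M00001_i_at was lost without vehicle replicates 1, 3 and 4 of study 2 or 2, 3 and 5 of study 3, each in turn, with adjusted p-values up to 0.149, and without the filter or the trend, at 0.0766 and 0.08.

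Apob, the scaffold of very low density lipoprotein, was called between vehicles of different studies and in no comparison of a dose with its vehicle. Whether its differences between studies exceeded those with dose was not tested. Its main probe set, M27440_at, read 2087, 2186 and 2426 in the vehicle arrays of study 1, 1587, 2001, 1391.5 and 2210.1 in those of study 2, 1173, 1095, 1241, 563 and 988.5 in those of study 3, and 1746, 1217, 1300.1 and 1016 in those of study 4. The vehicles of studies 2 and 3 did not overlap, nor did those of studies 1 and 4, with study 3 and study 4 the lower of each pair.

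Between the vehicles of studies 3 and 2, both at 336 h, M27440_at differed by -0.85 ± 0.23 (adjusted p = 0.00587) and U53873cds_at by -1.54 ± 0.38 (adjusted p = 0.00314). In all, 5 of the 14 probe sets were called lower in study 3, both of Apoa1 and 3 of Apob, against 9.29% of all. The third of Apob, M21842_at, read 16.0 to 23.3 in study 2 and 0.371 to 6.39 in study 3. It passed the filter only through studies 1 and 2, so its level in study 3 is not measured well enough for a size. Its call supports nothing here, also not as 1 of the 5 set against the share of all. The fourth Apob probe set, rc_AA997806_at, differed by -0.63 ± 0.27 and was not called (adjusted p = 0.0996), nor was the dim M14952mRNA_at at -0.56 ± 0.46 (adjusted p = 0.45).

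Between the vehicles of studies 4 and 1, both at 24 h, U53873cds_at of Apob read 21.2, 22.2, 21.6 and 31.5 in study 4 and 58.1, 316 and 264 in study 1. The difference was -2.70 ± 0.43 (adjusted p = 5.27e-05). This probe set and M21842_at were the 2 members called in this comparison, against 3.02% of all. M21842_at read 0.997 to 8.31 in study 4, under the filter of 9.17, and 12.4 to 15.1 in study 1. The same limit holds for its call and for its place among the 2 members. That call ended without vehicle replicate 1, 2 or 3 of study 1 (adjusted p = 0.0656, 0.0821 and 0.0896) and without vehicle replicate 1 or 4 of study 4 (adjusted p = 0.133 and 0.0594). M27440_at differed by -0.78 ± 0.26 and was not called (adjusted p = 0.0655), although without vehicle replicate 1 of study 4 its adjusted p was 0.0398.

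**Figure D4:**
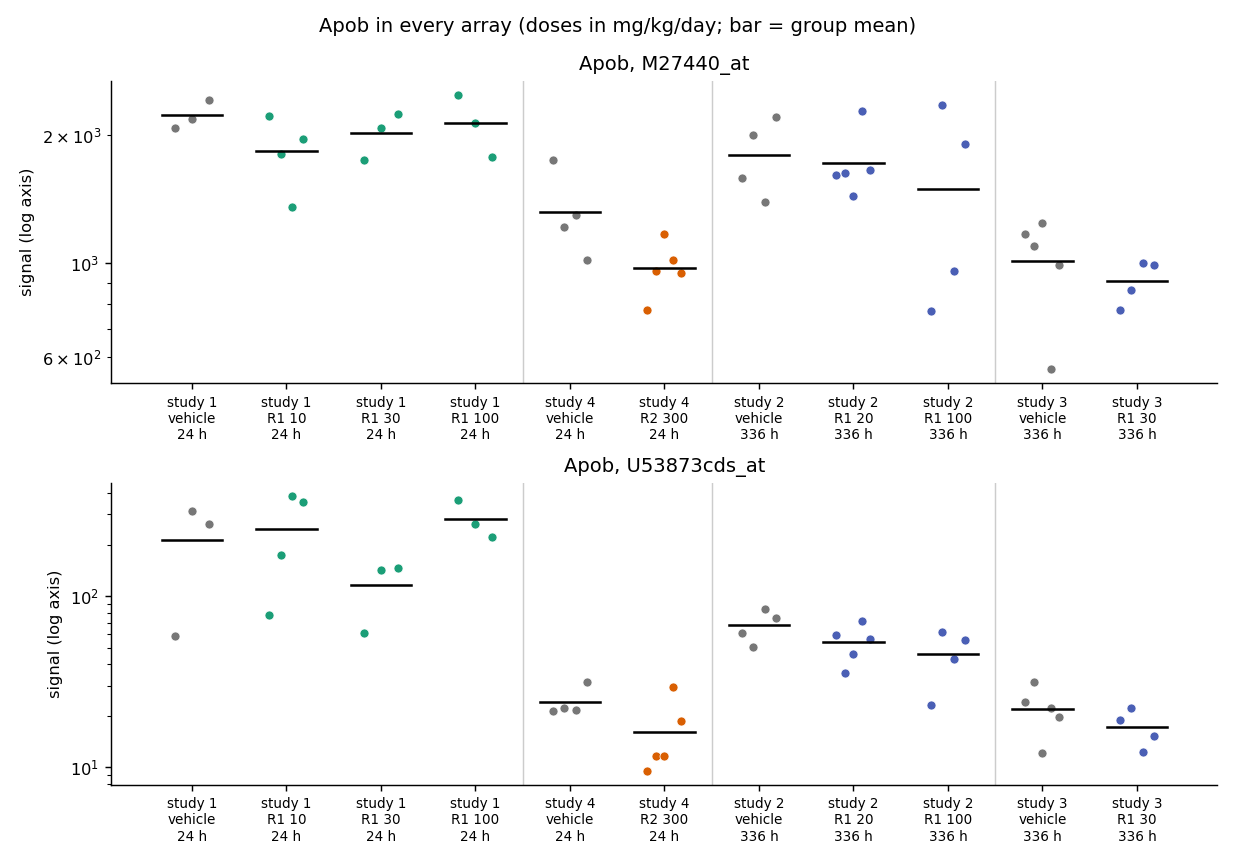
Signal (vertical axes, logarithmic) of the Apob probe sets M27440_at and U53873cds_at in the 44 arrays, in the 11 groups along the horizontal axis, which gives study, dose in mg/kg/day and sampling time. Points are arrays and black bars are group means. Treated groups lie near the vehicle of their own study, and for U53873cds_at the arrays of studies 3 and 4 lie at 31.5 or below while those of study 1 lie at 58.1 or above.

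Treated groups of Apob overlapped their vehicles on all 5 probe sets, save M21842_at with R1 at 100 mg/kg/day at 24 h, whose log2 fold change of 0.38 was not called (adjusted p = 0.688). For M27440_at the 7 log2 fold changes ran from -0.42 to -0.06. The lowest adjusted p of any Apob probe set in a dose comparison was that of rc_AA997806_at with R2, at -0.64 ± 0.27 (adjusted p = 0.0982). Its arrays with R2 read 502, 569.8, 809, 926 and 727 and those of vehicle 1527.5, 1225, 675 and 1066, so one vehicle array lay among the treated ones. Without that array, vehicle replicate 3, it was -0.87 with an adjusted p = 0.0334. Without vehicle replicate 1 it was -0.47 with an adjusted p = 0.312, and with array weights it was -0.44 with an adjusted p = 0.293. M27440_at read 770, 2359, 960 and 1907 with R1 at 100 mg/kg/day at 336 h, the widest spread of any group on that probe set (SD 759). Of the other Apob probe sets, U53873cds_at ran from 9.5 to 382 over the 44 arrays, and M21842_at and M14952mRNA_at stayed at or under 38.7 in every array.

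Apoa2, the second protein of high density lipoprotein, was called nowhere. The 11 group means of its probe set ran from 4440 in the vehicle of study 4 to 5979 in the vehicle of study 3, and neighbouring groups in the order of means all overlapped. The 7 log2 fold changes ran from -0.10 to 0.22, the last at R1 10 mg/kg/day at 24 h (SE 0.13, adjusted p = 0.629). The 95% intervals of all 7 lay between -0.39 and 0.49. At 24 h the arrays at 100 mg/kg/day, at 4304 to 5155, and those at 10 mg/kg/day, at 5519.9 to 6003.5, did not overlap, with a difference of -0.30 ± 0.13 that was not called (adjusted p = 0.243).

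Apoe, the ligand for remnant uptake, was among the highest signals of every array. Its probe set X04979_at took ranks 1 to 7 among the 8740 probe sets of an array and S76779_s_at ranks 5 to 26. At such ranks the shared set of values leaves few levels to take, so several arrays tie and a change of a rank is the smallest step. The group means ran from 10943 to 13076 on X04979_at and from 7688 to 9854 on S76779_s_at. The 7 log2 fold changes ran from -0.14 to 0.09 and from -0.16 to 0.14, and none was called, with 95% intervals between -0.34 and 0.34 over both probe sets. For S76779_s_at the arrays with R1 at 20 mg/kg/day at 336 h, at 7779.7 to 9050.0, lay below those of vehicle, at 9239 to 10258, at -0.16 ± 0.09 (adjusted p = 0.455). Because rank limits these values, they bound a relative level and say nothing of the amount of Apoe RNA in the liver.

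Summed hepatocyte markers were lower in the treated arrays at 336 h, and at 24 h with R2 and with R1 at 30 and 100 mg/kg/day. The summed hepatocyte signal was 59787 to 62977 in the vehicle arrays of study 2, 51920.0 to 57370.0 at 20 mg/kg/day and 53315 to 57746 at 100 mg/kg/day, and in study 3 it was 60319 to 64337 in vehicle and 51720.0 to 57021 with R1. With R2 it was 53772 to 59137 beside 59844 to 62904. In study 1 it was 58343 to 60216 in vehicle. At 10, 30 and 100 mg/kg/day of that study it was 55873 to 60742, 55119 to 58072 and 55306 to 57984. Of the 9 markers, 1, 3 and 2 were called at 20, 100 and 30 mg/kg/day at 336 h, against 4.28%, 9.96% and 10.9% of all genes tested. They were Fgb, the fibrinogen beta chain, at -0.57 ± 0.16 at 20 mg/kg/day, Cyp2e1, Cps1 and Tdo2 at 100 mg/kg/day, of which Tdo2 was higher at 0.81 ± 0.21, and Fgb and Cps1 at 30 mg/kg/day. The call of Fgb at 20 mg/kg/day ended without vehicle replicate 1, 2 or 3 or R1 replicate 1 or 4 (adjusted p up to 0.0808) and with study 2 fitted alone (adjusted p = 0.0501). That of Cps1 at 100 mg/kg/day ended without any one array other than vehicle replicate 4 and R1 replicate 2 (adjusted p up to 0.179), and with study 2 fitted alone or no trend (adjusted p up to 0.101). Alb was not called at 336 h, with log2 fold changes from -0.18 to -0.11. In bulk tissue, fewer cells of a type and less RNA per cell cannot be told apart, and the part of these shifts in the values of Apoa4, Apoc3 and Apoa1 was not tested.

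Summed markers of other cells also differed in range between groups. The 4 of 10 Kupffer cell and macrophage markers on the array summed to 784 to 1160 in the vehicle of study 2, 489 to 728 at 20 mg/kg/day and 412 to 585 at 100 mg/kg/day, and to 652 to 856 and 449 to 517 in study 3. The 4 of 6 bile duct markers summed to 853 to 1196, 1227 to 1992 and 924 to 1504 in study 2, and to 525 to 625.1 and 1196 to 1546 in study 3. At 24 h they summed to 474 to 606 in the vehicle of study 1. At 10, 30 and 100 mg/kg/day of that study the sums were 591 to 734, 523 to 892 and 827 to 1004. With R2 they were 902 to 1285 beside 432 to 786 in vehicle. The 3 of 4 red blood cell markers summed to 5208 to 6958, 4109 to 5547 and 2593 to 5044 in study 2, and to 2771 to 4948 in the vehicle of study 3 and 1252 to 2524 with R1. For 5 of 8 leukocyte markers the sums were 606 to 1155, 487 to 1019.9 and 241 to 525.3 in study 2 and 477 to 620.5 and 390.0 to 603.8 in study 3. Sums of 4 of 7 endothelial markers were 141 to 175, 96.0 to 133 and 77.2 to 128 in study 2 and 78.5 to 159 and 58.1 to 89.3 in study 3. Sums of 7 of 8 stellate cell and fibroblast markers were 537 to 787, 379 to 452 and 342 to 491 in study 2 and 297 to 885 and 222 to 322 in study 3. Of 5 leukocyte markers tested, 0, 1 and 0 were called lower at 20, 100 and 30 mg/kg/day at 336 h. In the same order it was 0, 1 and 1 of 4 endothelial markers. For stellate cells and fibroblasts it was 0, 0 and 2 of 6, and for red blood cells 0, 0 and 2 of 3. Of 3 Kupffer cell and macrophage markers tested 1, 2 and 1 were called lower, and of 4 bile duct markers 2, 1 and 2 were called higher. The bile duct list holds Krt18, a keratin that is not particular to bile duct cells. Krt18 was called at 20 and 30 mg/kg/day at 336 h, and at 24 h with R1 at 100 mg/kg/day and with R2. The bile duct sums and counts therefore do not stand for bile duct cells alone. Over all genes tested 4.28%, 9.96% and 10.9% were called in either direction, while the marker counts are of 1 direction. Only Clec4f and Epcam were called at all 3 doses. Clec4f, a Kupffer cell lectin, fell by -0.88, -1.31 and -0.82 at 20, 100 and 30 mg/kg/day at 336 h. Epcam, a bile duct adhesion protein, rose by 1.07, 1.64 and 1.30. The adjusted p-values were 0.00819, 3.57e-05 and 0.00729 for Clec4f and 0.0253, 0.000175 and 0.00186 for Epcam. At 20 mg/kg/day the call of Clec4f ended without vehicle replicate 1 (adjusted p = 0.055). That of Epcam ended without vehicle replicate 1 or R1 replicate 1 (adjusted p up to 0.19), and with study 2 fitted alone or the replicate block (adjusted p up to 0.0658). Their part in the member values was not tested. The small intestine, another source of Apoa4, was checked with 5 of 7 markers. Their sum reached at most 96.5 in any array, and in study 3 it was 47.1 to 96.5 in vehicle and 61.2 to 87.4 with R1. With R2 it was 39.2 to 73.7 beside 46.8 to 63.6 in vehicle, with Fabp2 called higher, at means of 25.2 and 10.5, and Muc2 lower, by -0.93 ± 0.31 (adjusted p = 0.0295). The call of Fabp2 ended without vehicle replicate 1 of study 4 (adjusted p = 0.109), and that of Muc2 without vehicle replicate 1 or 3 or R2 replicate 2 or 3 (adjusted p up to 0.155). Both also ended with study 4 fitted alone and with array weights (adjusted p up to 0.0919 and 0.161).

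RNA quality was read from the β-actin control, whose 3′ signal exceeds its 5′ signal more in degraded RNA. The log2 difference of 3′ minus 5′ was 1.01 to 1.61 in the vehicle of study 2, 0.74 to 1.10 at 20 mg/kg/day and 0.61 to 1.20 at 100 mg/kg/day, and 0.81 to 1.46 and 0.67 to 0.82 in study 3. At 24 h it was 1.10 to 1.77 in the vehicle of study 1. At 10, 30 and 100 mg/kg/day of that study it was 0.64 to 1.06, 0.83 to 1.08 and 0.53 to 1.23. In study 4 it was 0.48 to 1.52 in vehicle and 0.80 to 1.49 with R2. The same difference for GAPDH overlapped between treated and vehicle arrays at 336 h. The part of this difference in the member values was not tested.

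Apoa4 and Apoc3 were set side by side over the treated arrays, each taken as log2 minus the vehicle mean of its study. Within the 13 R1 arrays at 336 h, Pearson's r was 0.428. Within the 15 treated arrays at 24 h it was -0.517. Arrays of a study share their vehicle mean and the arrays fall into separate clusters by time, so no correlation over both is read. At 336 h Apoa1 ran against Apoc3 with r = -0.343 and against Apoa4 with r = -0.37. Within treated arrays at 24 h these were -0.725 and 0.457. The 15 arrays at 24 h pool R1 of study 1 with R2 of study 4. Their Apoa1 values did not overlap, at -0.06 to 0.16 with R1 and 0.26 to 0.39 with R2. Each r at 24 h therefore mixes a difference between compounds and studies with that between arrays. The 13 arrays at 336 h likewise pool studies 2 and 3. All these values of r are descriptions of the arrays, with no test.

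**Figure D5:**
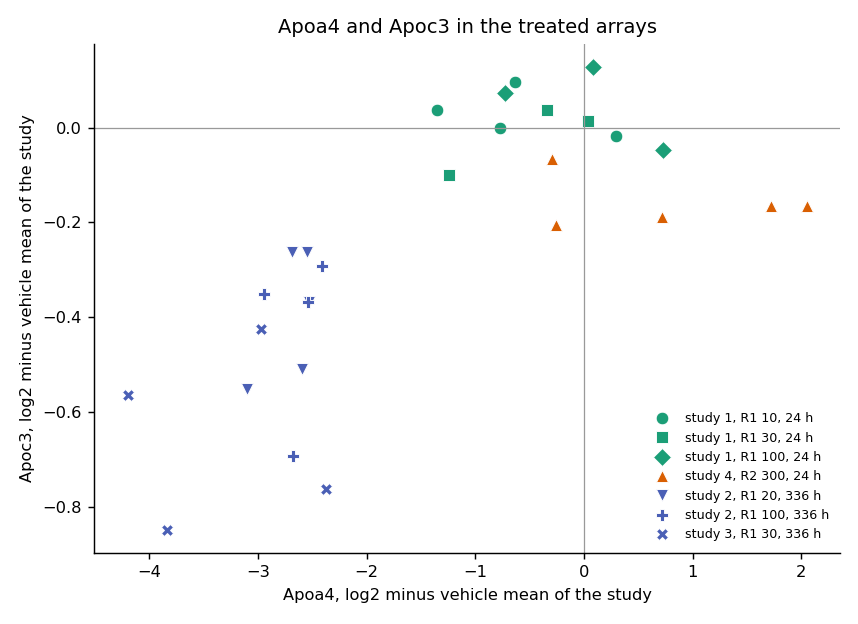
Deviation of Apoc3 (J02596cds_at, vertical axis) against that of Apoa4 (horizontal axis) in the 28 treated arrays, both as log2 minus the vehicle mean of the study, with marker shapes for the 7 dose groups. The 13 R1 arrays at 336 h lie in the lower left and the 15 arrays at 24 h lie apart from them. Within the first r = 0.428, and within the second, which pool R1 and R2, it is -0.517.

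Genes whose main probe set was most like that of a member were listed by r over the 28 treated arrays, a measure that a time difference shared by many genes also raises. The 3 genes of highest r among all tested were kept per member, a choice that itself favours a high r, with no test. For Apoa4 they were Cyp2c7, a cytochrome P450 (r = 0.822), Casp1, an inflammatory caspase (r = 0.807), and Stip1, a chaperone organiser (r = 0.798). Cyp2c7 was called lower in the same 3 comparisons as Apoa4, at -0.99, -1.76 and -1.35 at 20, 100 and 30 mg/kg/day at 336 h, while Casp1 was called in none of the 7. Stip1 was called higher at R1 100 mg/kg/day and with R2 at 24 h, at 1.20 and 1.11, and in none at 336 h, so it followed another course than Apoa4.

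For Apoc3 the genes were Oat, ornithine aminotransferase (r = 0.87), Nek9, a mitotic kinase (r = 0.813), and Apcs, serum amyloid P (r = 0.797). At 20, 100 and 30 mg/kg/day at 336 h Apcs was called lower at all 3 doses, at -0.47 and -0.96 for the latter 2, and Oat was called at 30 mg/kg/day alone, at -2.03. For Apoa1 they were Ctsd, the lysosomal protease cathepsin D (r = 0.737), Psmb1, a proteasome subunit (r = 0.707), and Mta1 (r = 0.647). For Apob they were Sod2, the mitochondrial superoxide dismutase (r = 0.799), and the respiratory chain genes Ndufa9 (r = 0.651) and Uqcrc2 (r = 0.616). For Apoa2 they were Napa, Hmg20b and Gata3 (r = 0.757, 0.691 and 0.671), and for Apoe Timm17a, Gtf2ird1 and Higd1a (r = 0.73, 0.689 and 0.687).

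Other genes of the lipoprotein pathway were taken from 6 lists of 103 genes, of which 55 were on the array and 50 were tested, each on the main probe set of the gene. At 24 h, 0 were called with R1 at 10 and 30 mg/kg/day and 2 at 100 mg/kg/day, against 1.03%, 1.33% and 5.98% of all 3693 genes tested. In limma 6, 3 and 9 of the 50 had an unadjusted p under 0.05 there, and with array weights 1 gene was called at each of the lower 2 doses. With R2, 11 were called, 2 higher and 9 lower, against 15.4%. At 336 h, 1 was called at 20 mg/kg/day, 11 at 100 mg/kg/day and 7 at 30 mg/kg/day, against 4.28%, 9.96% and 10.9%. All of those calls at 336 h were lower save that of Nr1d1. The 11 at 100 mg/kg/day include Cd36, whose vehicle mean just passed the filter on dim signals and whose treated mean lay far under it. Its call adds no weight to the count. Single arrays moved the counts. At 30 mg/kg/day 2 remained without R1 replicate 3 and 4 without R1 replicate 4 or vehicle replicate 2. At 100 mg/kg/day 6 remained without vehicle replicate 3 and 7 without vehicle replicate 2 or 4 or R1 replicate 1. With R2, 6 remained without vehicle replicate 3 or R2 replicate 1 and 7 without vehicle replicate 1 or 2. The median log2 fold change of the 50 genes at 336 h was -0.11, -0.19 and -0.19, beside -0.02 to 0.00 over all genes.

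The plasma enzymes that act on lipoproteins held the calls that recurred at 336 h. Of 5 genes tested from that list, 1, 2 and 2 were called lower at 20, 100 and 30 mg/kg/day. Over all genes tested 4.28%, 9.96% and 10.9% were called there in either direction, and 15.4% with R2. Lcat, which esterifies cholesterol on high density lipoprotein, fell at all 3 doses, by -0.64 ± 0.13, -0.997 ± 0.14 and -0.60 ± 0.13 at 20, 100 and 30 mg/kg/day (adjusted p = 0.00083, 3.1e-07 and 0.000813). Its mean went from 1694 in the vehicle of study 2 to 1080.0 and 848. Lipc, the hepatic lipase, fell at 100 and 30 mg/kg/day, by -0.82 ± 0.18 and -0.73 ± 0.17 (adjusted p = 0.00124 and 0.00305), and with R2 by -0.69 ± 0.17 (adjusted p = 0.00397). Leaving out R1 replicate 3 of study 3 took the adjusted p of Lipc at 30 mg/kg/day to 0.0514, and fitting study 4 alone took that with R2 to 0.0696. No setting ended the 3 calls of Lcat.

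Among the 9 genes tested for particle assembly and secretion, 3 fell at R1 100 mg/kg/day at 336 h, 1 at 30 mg/kg/day and 2 with R2. Over all genes tested 9.96%, 10.9% and 15.4% were called in these comparisons in either direction. Over all probe sets tested 5.2%, 6.01% and 7.88% were called lower. At 100 mg/kg/day the 3 were as follows. Plin2, the coat protein of lipid droplets, fell by -2.44 ± 0.24 (adjusted p = 9.03e-11), from a mean of 1037 to 194.0. Ces1d and Ces1e, carboxylesterases of the endoplasmic reticulum, fell by -1.20 ± 0.34 and -0.78 ± 0.24 (adjusted p = 0.0154 and 0.0254). The call of Ces1e ended without vehicle replicate 2 or 4 or R1 replicate 1 or 3, with adjusted p-values up to 0.138. Apobec1, which edits the Apob transcript, fell at 30 mg/kg/day in study 3 by -1.06 ± 0.21 (adjusted p = 0.00038), from 51.0 to 22.9. It also fell with R2, by -0.63 ± 0.21 (adjusted p = 0.0369), as did Pdia3 by -0.53 ± 0.19 (adjusted p = 0.0465). The call of Apobec1 with R2 was lost without any one array of study 4 other than R2 replicates 4 and 5 (adjusted p up to 0.107). That of Pdia3 was lost without vehicle replicate 1, 2 or 3 or R2 replicate 1, 3 or 5 (adjusted p up to 0.185). Settings other than a left-out array also ended both calls, with adjusted p-values up to 0.0635 for Apobec1 and 0.106 for Pdia3.

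Of the 6 other apolipoproteins and particle proteins tested, 2 fell at 100 mg/kg/day, 2 at 30 mg/kg/day and 1 with R2. Over all genes tested 9.96%, 10.9% and 15.4% were called there in either direction. Over all probe sets tested 5.2%, 6.01% and 7.88% were called lower. A count of 1 with R2 is too small to set apart from the background. At 100 mg/kg/day these were Apoc4, which lies in the gene cluster of Apoe, at -0.79 ± 0.23 (adjusted p = 0.0159), and the antioxidant esterase Pon1 at -0.54 ± 0.18 (adjusted p = 0.0377). At 30 mg/kg/day they were Apoh at -0.45 ± 0.13 (adjusted p = 0.0174) and Apom at -0.52 ± 0.17 (adjusted p = 0.0397), and with R2 Apom at -0.57 ± 0.17 (adjusted p = 0.0158). Each of these 5 calls ended without some single array. For Apoc4 these were vehicle replicate 3 and R1 replicate 2 (adjusted p up to 0.0687), for Apoh R1 replicate 3 (adjusted p = 0.0814), and for Apom with R2 vehicle replicate 1 and R2 replicate 5 (adjusted p up to 0.135). For Pon1 they were the 4 vehicle arrays and R1 replicates 1 and 2 (adjusted p up to 0.324), and for Apom at 30 mg/kg/day R1 replicates 1, 3 and 4 and vehicle replicates 1, 2 and 5 (adjusted p up to 0.185). Settings other than a left-out array also ended the call of Pon1 (adjusted p up to 0.139). They ended those of Apom at 30 mg/kg/day and with R2 as well (adjusted p up to 0.0624 and 0.103).

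Receptors and transporters, with 7 and 2 genes tested, gave 6 calls. Over all genes tested 5.98% were called with R1 at 100 mg/kg/day at 24 h, 15.4% with R2 and 9.96% with R1 at 100 mg/kg/day at 336 h. Abcb4, the canalicular phospholipid transporter, rose with R1 at 100 mg/kg/day at 24 h (0.80 ± 0.24, adjusted p = 0.0316) and with R2 (1.20 ± 0.20, adjusted p = 1.31e-05) and fell with R1 at 100 mg/kg/day at 336 h (-0.70 ± 0.21, adjusted p = 0.0203). The first call ended without vehicle replicate 1 or 2 or R1 replicate 1 or 3 (adjusted p up to 0.269), and the last without vehicle replicate 2 or 3 or R1 replicate 1 or 3 (adjusted p up to 0.088). No left-out array ended the call with R2. Of 7 receptor genes tested, Scarb2, a lysosomal membrane receptor, rose with R2 by 0.82 ± 0.18 (adjusted p = 0.00104) and Lrp2 fell by -0.61 ± 0.21 (adjusted p = 0.0388). Cd36, a fatty acid and lipoprotein receptor, was called lower at R1 100 mg/kg/day at 336 h, but its vehicle mean of 9.23 just passed the filter of 9.17 and its treated mean of 1.45 lay far under it, so no size is given. The call of Lrp2 ended without vehicle replicate 2, 3 or 4 or R2 replicate 1, 2 or 5 (adjusted p up to 0.129). That of Cd36 ended without any one array of either group other than vehicle replicate 1 (adjusted p up to 0.166). Settings other than a left-out array also ended the calls of Lrp2, of Cd36 and of Abcb4 with R1 at 24 h (adjusted p up to 0.156, 0.0656 and 0.0619).

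Of 21 transcription factors known to act on apolipoprotein genes, 1 was called with R1 at 100 mg/kg/day at 24 h, 4 with R2, and 2 each at 100 and 30 mg/kg/day at 336 h. Over all genes tested the shares called were 5.98%, 15.4%, 9.96% and 10.9%, so these counts lie near the background. Hnf4a, a main activator of apolipoprotein genes, rose at R1 100 mg/kg/day at 24 h by 0.80 ± 0.20 (adjusted p = 0.00607) on 1 of its 3 probe sets. It was not called at 336 h, and its call ended without vehicle replicate 2 or R1 replicate 2 (adjusted p up to 0.0842). With R2, Foxa1 fell by -1.15 ± 0.28 (adjusted p = 0.00286), Cebpa by -0.84 ± 0.21 (adjusted p = 0.00365) and Nr5a2 by -1.16 ± 0.39 (adjusted p = 0.0352), the last lost without any of replicates 1, 2 and 3 of vehicle or of R2 (adjusted p up to 0.142). The other call with R2 was Ppard at -0.61 ± 0.21 (adjusted p = 0.0391), named after its value was seen and lost without vehicle replicate 1, 3 or 4 or R2 replicate 1 or 5 (adjusted p up to 0.133). Nr1d1, the clock repressor also named Rev-erb alpha, rose at R1 100 mg/kg/day at 336 h by 1.54 ± 0.40 (adjusted p = 0.00602), from 21.0 to 64.9, on both of its probe sets. In the same comparison Nr1h2 fell by -0.57 ± 0.18 (adjusted p = 0.0266), and at 30 mg/kg/day Foxa3 and Ppard fell by -0.82 ± 0.24 and -0.63 ± 0.21 (adjusted p = 0.0184 and 0.0433). The call of Nr1h2 ended without vehicle replicate 1, 3 or 4 or R1 replicate 1 or 2 (adjusted p up to 0.0958), that of Foxa3 without vehicle replicate 2 or either of R1 replicates 3 and 4, reaching an adjusted p of 0.144, and that of Ppard without any one array of study 3 other than vehicle replicate 1 (adjusted p up to 0.176). Settings other than a left-out array also ended the calls of Nr5a2 and Ppard with R2 (adjusted p up to 0.178 and 0.11). Those of Nr1h2, Foxa3 and Ppard at 336 h ended under 1 such setting each (adjusted p = 0.0537, 0.0516 and 0.0567). Of the genes named from these lists, Apoh, Pon1, Scarb2, Lrp2, Cd36, Cebpa, Foxa3 and Ppard also have a probe set that was tested and not called in the same comparison.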

How the data were processed

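RNA of 44 rat liver samples was hybridised to 1-colour arrays. The authors deposited linear intensity values that, per the submitters' processing notes, came from MAS5. The sorted values of all 44 deposited arrays are identical, so each array carries 1 shared distribution, a step that the labels' protocols do not state; it makes every level relative within its array and ties values at the top ranks. Values were matched to samples by column name, with 0 columns left over.

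Of 8799 probe sets, 59 controls were removed. Gene symbols came from the platform annotation, which gave 1 symbol for 7006 of the remaining 8740, several for 308 and none for 1426, and only probe sets with 1 symbol were named. The offset 2.89 is percentile 20 of all values and the filter of 9.17 is percentile 40, applied to the highest group mean. limma 3.58.1 in R 4.3.3 fitted 11 group means over all 44 arrays (33 residual degrees of freedom, empirical Bayes with a trend), 2-sided, with Benjamini-Hochberg adjustment within each comparison, for 7 contrasts of dose with the vehicle of its study and 6 of dose, time and vehicle differences. The fit was tested on simulated data. Tables and figures were made in Python 3.11.15.

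The text names every probe set of the 6 genes, per gene list and comparison up to 3 called genes with the largest change, per member the 3 other genes most like it, and marker genes beside the results they accompany. The members, lists and tests were chosen with earlier results of these data known. Alternatives were other offsets and filters, centring, each study alone, no variance trend, array weights, a replicate block, the mean over probe sets and leaving out each array. Proteins and the other promoters were not analysed here.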

Additional observations from a re-analysis of the deposited data

Results flagged for a closer look

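Apoa4 and Apoc3 gave 3 differences of a dose effect between sampling times, each from different studies. For Apoa4 the effect at 336 h minus that at 24 h was -2.83 for R1 at 30 mg/kg/day (adjusted p = 0.00828) and -2.67 for 100 mg/kg/day (adjusted p = 0.00446), and for Apoc3 (J02596cds_at) it was -0.63 for 30 mg/kg/day (adjusted p = 0.0365). The other 2 probe sets of Apoc3 were not called in that contrast (adjusted p = 0.208 and 0.684), and 13 of 23 alternatives ended the call of J02596cds_at.

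Single arrays stood apart from the rest of their group in 12 of 112 groups and probe sets examined with Dixon's criterion, where chance alone gives about 1 in 20. Among R1 arrays at 336 h, Apoa4 was 99.2 in replicate 5 at 20 mg/kg/day beside 133 to 149 in the others, and Apoc3 (rc_AI169758_at) was 492 in replicate 3 at 100 mg/kg/day beside 712 to 729. For Apob, M21842_at was 29.1 in replicate 1 of R1 at 20 mg/kg/day beside 14.3 to 16.3, M27440_at was 563 in vehicle replicate 4 of study 3 beside 988.5 to 1241, and U53873cds_at was 31.5 in vehicle replicate 4 of study 4 beside 21.2 to 22.2. Apoa2 was 6117.5 in vehicle replicate 3 of study 2 beside 4914 to 4953, and 7281 in vehicle replicate 2 of study 3 beside 5466 to 5756.

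The other 5 concern Apoe, whose values step between ranks. S76779_s_at was 7281 in replicate 4 of R1 at 10 mg/kg/day beside 8854, and 7779.7 in replicate 4 of R1 at 20 mg/kg/day beside 9050.0. X04979_at was 12071 in replicate 3 of R1 at 10 mg/kg/day beside 11270.0, 12597 in vehicle replicate 4 of study 2 where the others tied at the top value of the array, and 10598 in replicate 4 of R1 at 20 mg/kg/day beside 12597 or more.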

How the results depend on the processing

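Over 10 settings and 44 arrays left out in turn, 3138 member values were recomputed. Of these, 3038 kept their side of the threshold, 82 lost a call, 18 gained one and 0 changed sign while called. Values that were not called did change sign in places. For Apoc3 (rc_AI169758_at) in the time difference at 100 mg/kg/day this happened in 9 of 22 alternatives. The falls of Apoa4 at 336 h ranged from -2.73 to -2.59 at 20 mg/kg/day, from -2.72 to -2.54 at 100 mg/kg/day and from -3.67 to -3.06 at 30 mg/kg/day when 1 array was left out. Centring moved the median of all probe sets by under 0.1.

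Counts of called member probe sets moved as follows, and the cause was not tested where the setting did not reduce the samples or probe sets. With R2 (1 called) they were 2 under a filter at percentile 60, 0 with each study fitted alone and 2 with array weights. With R1 at 336 h they were 1 at 20 mg/kg/day (2 called) and 2 at 100 mg/kg/day (5 called) with each study fitted alone. Between 100 and 20 mg/kg/day (2 called) they were 0 with no filter, with each study alone, with no trend and with array weights. The time difference at 30 mg/kg/day (2 called) gave 1 with no filter and 1 with no trend, and that at 100 mg/kg/day (1 called) gave 2 at percentile 60 and 3 with array weights. The vehicles of studies 4 and 1 (2 called) gave 5 with array weights.

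Leaving out 1 array gave member counts of 0 to 0 at the 3 R1 doses at 24 h and between 100 and 10 mg/kg/day, 1 to 2 with R2, 1 to 2, 3 to 5 and 4 to 6 at 20, 100 and 30 mg/kg/day at 336 h, 0 to 2 between 100 and 20 mg/kg/day, 0 to 2 and 1 to 2 for the time differences at 30 and 100 mg/kg/day, and 4 to 5 and 1 to 3 for the vehicles of studies 3 and 2 and of studies 4 and 1. The arrays behind the lowest counts were, at 100 mg/kg/day, vehicle replicate 3 and R1 replicate 3, and, for the time difference at 30 mg/kg/day, R1 replicate 1 of study 1.

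Counts of called lipoprotein list genes were, with array weights, 1, 1 and 4 at R1 10, 30 and 100 mg/kg/day at 24 h (0, 0 and 2 called), 3 at 20 mg/kg/day (1 called) and 11 at 30 mg/kg/day at 336 h (7 called). When a gene's probe sets were averaged they were 4 at 100 mg/kg/day at 24 h and 2 at 20 mg/kg/day at 336 h. With R2 (11 called) they were 7 with no filter and 4 with each study alone. Leaving out 1 array gave 0 to 0, 0 to 1 and 1 to 3 at 24 h, 6 to 11 with R2, and 1 to 2, 6 to 11 and 2 to 7 at 20, 100 and 30 mg/kg/day at 336 h.

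Arrays with the same replicate number in a study deviated together weakly or not at all (median r from -0.04 to 0.06, with 4 of 38 pairs over 0.1). In studies 1 and 2 their median r was above that of pairs with different numbers (0.041 against -0.017 and 0.055 against -0.032). In studies 3 and 4 it was not (-0.036 against -0.002 and 0.0033 against 0.0036). Whether the numbers mark a pairing was not tested. With the replicate number as a block, member counts were 2 with R2, 1 at 20 mg/kg/day at 336 h, 1 between 100 and 20 mg/kg/day and 1 for the time difference at 30 mg/kg/day, and list counts 1 at 100 mg/kg/day at 24 h and 2 at 20 mg/kg/day at 336 h. The replicate block took the adjusted p of Apoc3 (J02596cds_at) at 20 mg/kg/day to 0.0743, of Apoc3 (rc_AI169758_at) at 30 mg/kg/day to 0.247 and of Apoa1 (J02597cds_s_at) at 30 mg/kg/day to 0.0691.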
